A study of Danio rerio with 9 samples.

Results

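The transcripts of tdrd6, lhx8a and zp3b, all known as products of the oocyte, were followed in whole zebrafish embryos of 3 ploidies at 3 hours after fertilization. The genes were chosen by their symbols in the expression tables of the 9 libraries, and are 3 of the 30702 loci listed and 3 of the 5881 genes tested. All 3 passed the filter on low values, a mean of at least 1 FPKM over the libraries. FPKM corrects the number of sequenced fragments for transcript length and library size, so levels can be set side by side between genes. The libraries comprised 3 from tetraploid, 3 from haploid and 3 from diploid control embryos, all labelled with TJH as the mother's strain, Tu as the father's and a stage of 3 hours. Haploid and tetraploid embryos were made by a published procedure cited in the labels. Whether diploid embryos were handled alike, and how many embryos or clutches went into a library, is not given in the sources used here. The p-values below therefore rest on a spread among libraries that could be purely technical.

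Early zebrafish embryos develop on RNA and protein that the mother placed in the egg, and transcription of their own genome starts at about the blastula stage sampled here. Germ plasm is a store of maternal RNA and protein granules in the egg that is inherited by a few cells, which become the germ line. The egg envelope, or chorion, is built of zona pellucida glycoproteins laid down around the growing oocyte. tdrd6 encodes a Tudor domain protein of the germ plasm that binds the germ plasm organizer Bucky ball in zebrafish. lhx8a encodes a LIM homeobox transcription factor, whose mouse counterpart Lhx8 is needed for oocytes to mature in early follicles. zp3b encodes a zona pellucida protein of the egg envelope.

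On the genome build GRCz10 used by the submitters, tdrd6 is locus XLOC_013598 on chromosome 20 from 35535421 to 35559347. lhx8a is XLOC_011819 on chromosome 2 from 11422196 to 11426569, and zp3b is XLOC_011763 on the same chromosome from 6341364 to 6346914. RefSeq now names the first gene tdrd6a, with tdrd6 as a synonym. The last 491 bases of the tdrd6 locus overlap pla2g7, which starts at 35558857 and is listed at 0 in every library. pla2g7 lies in the second numbering run (described with the processing), where such loci count as unmeasured. Its 0 therefore does not show that the gene is silent. In the authors' pooled tables the tdrd6 locus runs on to 35568200, the end of pla2g7. How reads of the 2 genes were assigned there was not tested.

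As a check of the label, the 9 libraries were read for markers of the embryo and of the follicle cells that surround an oocyte. nanog, a maternal transcription factor of the early embryo, lay between 834.7 and 1160 FPKM after scaling to a common median between libraries. As a maternal RNA it does not tell an embryo from an egg. Of 20 genes known from follicle cells or the later gonad and matched in the files, 1 was tested. It was cyp11a1.1, which encodes the side-chain cleavage enzyme of steroid synthesis and whose RNA is known as maternal in zebrafish. It averaged 75.7 ± 12.3 in tetraploid, 72.1 ± 11.1 in haploid and 78.2 ± 6.48 in diploid libraries, scaled in the same way. The highest mean among the other 19 genes was 0.170 FPKM as deposited. However, 8 of the 20 loci count as unmeasured. They lie in a part of the tables where nearly all genes read close to 0 (the second numbering run, described with the processing). nanog comes from a list of 20 embryo genes, of which 12 are unmeasured in the same way and 6 were tested. At 1 FPKM or more, 5395 to 5921 loci were listed per library. One library was unlike the rest: tetraploid replicate 3 correlated with the 8 others at 0.9163 to 0.9305, whereas all remaining pairs lay between 0.9502 and 0.9851. It also had the lowest scaling factor (0.801, with 1.01 to 1.06 elsewhere) and the smallest mitochondrial part of the summed FPKM (14.7%, with up to 26.7% elsewhere). All tetraploid means include it. For tdrd6, lhx8a and several list results, differences are given with and without it.

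All 3 transcripts were present in every library, at different levels. Averaged over the 9 libraries, zp3b was the most abundant at 56.0 FPKM, above 84.2% of the tested genes. tdrd6 followed at 23.6 FPKM, above 66.8% of them, and lhx8a at 12.4 FPKM was close to the median of all tested genes, 11.9 FPKM. Here and below, levels are scaled to a common median between libraries. Their coefficient of variation over the 9 libraries was 12.3% for zp3b, 20.3% for tdrd6 and 20.3% for lhx8a, against a median of 23.0% over all tested genes. The deposited intervals, read as counting error, imply 2.91% to 3.90% for zp3b, 2.91% to 5.79% for tdrd6 and 6.28% to 8.65% for lhx8a in single libraries. On that reading the last corresponds to 133.5 to 253.9 fragments per library, the fewest of the 3 genes. The reading itself was not tested, and the intervals of single libraries do not cover differences between libraries.

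tdrd6 was lowest in tetraploid and highest in haploid embryos, with no overlap between any of the ploidies. Its levels were 20.0, 21.5 and 15.6 FPKM in the tetraploid libraries, 26.5, 32.6 and 26.5 in the haploid libraries and 22.7, 24.6 and 22.2 in the diploid libraries. Every tetraploid value lay below every diploid value, and every haploid value above them. The means were 19.1 ± 3.06 FPKM in tetraploid, 28.5 ± 3.53 in haploid and 23.2 ± 1.26 in diploid libraries (SD, n = 3 each).

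None of these differences passed the test across all genes. By limma with Benjamini-Hochberg adjustment, tetraploid minus haploid was -0.56 on the log2(FPKM + 1) scale (SE 0.160, adjusted p = 0.551). This was the 55th smallest p of 5881, and 91.5% of the tested genes had a smaller absolute difference. The ratio of FPKM + 1 was 0.676. The log2 difference was -0.28 for tetraploid minus diploid (SE 0.160, adjusted p = 0.833) and 0.28 for haploid minus diploid (SE 0.160, adjusted p = 0.9996). Without tetraploid replicate 3, the lowest library, tetraploid minus diploid was -0.15 and tetraploid minus haploid was -0.43 (adjusted p = 0.971 and 0.393 by limma). Bulk libraries cannot tell fewer cells with a transcript from less of it per cell.

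An order with all 3 ploidies separate and diploid between the others was seen for few genes. Rising with ploidy in this way held for 10 of the 5881 genes, and orders with diploid highest or lowest were not counted. Falling from haploid to tetraploid with no overlap, as tdrd6 did, held for 23 of the 5881 genes, or 0.391%. This order was looked for after the values of tdrd6 were known, so it describes the gene and tests nothing. tdrd6 kept the order with FPKM as deposited, where 29 genes had it, and with upper-quartile scaling, where 25 did. lhx8a and zp3b were not ordered in this way under any of these scalings.

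lhx8a was highest in tetraploid embryos. Its levels were 14.1, 16.8 and 15.5 FPKM in the tetraploid libraries, 9.72, 9.60 and 11.2 in the haploid libraries and 11.1, 11.4 and 12.4 in the diploid libraries. Every tetraploid value exceeded every haploid and diploid value, while the highest haploid library stood just above the lowest diploid one. The separation from diploid libraries rested on the scaling of tetraploid replicate 3. With FPKM as deposited that library had 12.4, below the 13.1 of diploid replicate 3 and above all haploid libraries. The means were 15.5 ± 1.32 FPKM in tetraploid, 10.2 ± 0.911 in haploid and 11.6 ± 0.713 in diploid libraries (SD, n = 3 each).

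For lhx8a the difference also failed the adjustment for all genes tested. Tetraploid minus haploid was 0.56 log2 units (SE 0.148, limma adjusted p = 0.551), the 34th smallest p. Tetraploid minus diploid was 0.38 (SE 0.148, limma adjusted p = 0.833). The ratios of FPKM + 1 were 1.47 and 1.30, and those of the mean FPKM were 1.52 and 1.33. Haploid minus diploid was -0.18 (SE 0.148, limma adjusted p = 0.9996), with overlapping groups. Without tetraploid replicate 3 the first 2 differences were 0.56 and 0.38, as with it. The spread of lhx8a within a ploidy was 6.12% to 8.95% as a coefficient of variation. This lay near the 6.28% to 8.65% that its deposited intervals imply when read as counting error.

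zp3b overlapped between all ploidies. Its levels were 49.7, 52.0 and 57.7 FPKM in the tetraploid libraries, 55.6, 64.4 and 64.2 in the haploid libraries and 48.1, 48.3 and 63.7 in the diploid libraries. Of the diploid libraries only replicate 3 reached the level of the higher haploid ones. The means were 53.1 ± 4.13 FPKM in tetraploid, 61.4 ± 5.00 in haploid and 53.4 ± 8.99 in diploid libraries (SD, n = 3 each). By limma the log2 differences were 0.0035 for tetraploid minus diploid, -0.20 for tetraploid minus haploid and 0.21 for haploid minus diploid (SE 0.148 each, adjusted p = 0.996, 0.728 and 0.9996). The direction for tetraploid minus diploid turned in several alternatives, among them FPKM as deposited (-0.12) and the fit without tetraploid replicate 3 (-0.056). Without diploid replicate 3, haploid minus diploid was 0.34.

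**Figure D1:**
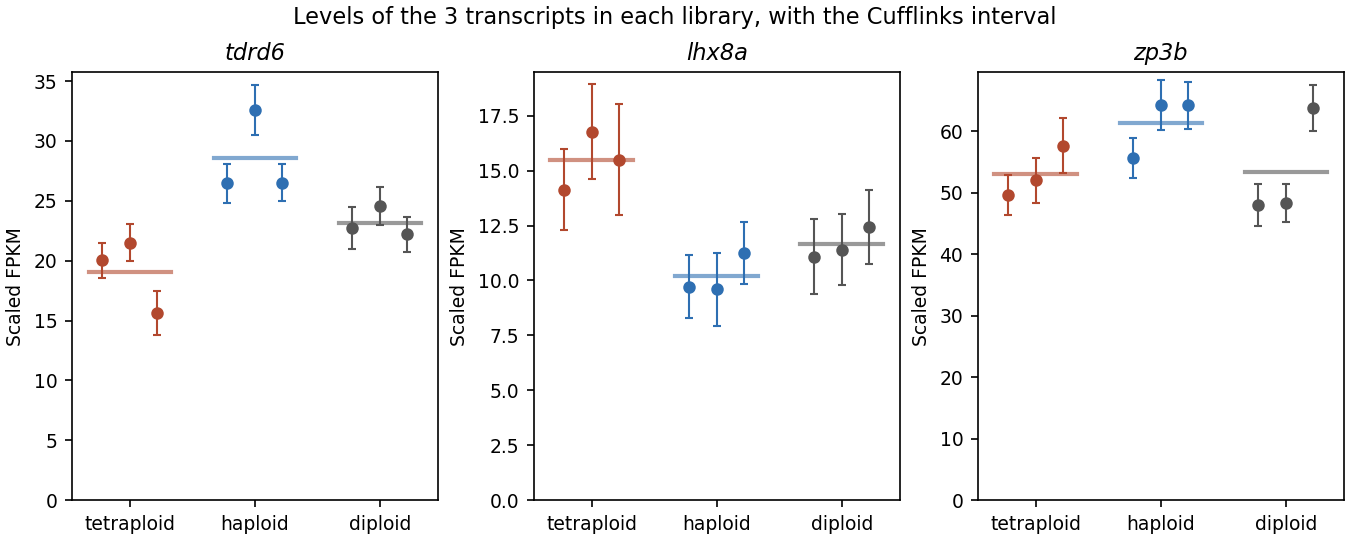
Levels of tdrd6, lhx8a and zp3b in scaled FPKM (vertical axis, from 0) in each of the 9 libraries, with tetraploid, haploid and diploid from left to right. Points are libraries with the interval that Cufflinks gives, and horizontal lines are means of 3 libraries. The tetraploid points are the lowest for tdrd6 (15.6 to 21.5) and the highest for lhx8a (14.1 to 16.8), and the zp3b groups overlap.

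Few genes passed in the data as a whole, and the members' values stand against that background. For haploid minus diploid 0 of 5881 genes passed by limma (0%, with 81 at an unadjusted p under 0.05), for tetraploid minus diploid 1 did (0.017%, with 288), and for tetraploid minus haploid 1 did (0.017%, with 454). Over all 3 ploidies at once the limma F test called 1 gene (0.017%), and the members had adjusted p values of 0.939 each. Groups that did not overlap were common, at 8.59% of the genes for haploid minus diploid, 11.5% for tetraploid minus diploid and 13.8% for tetraploid minus haploid. Of the 3 members, 1 did not overlap in the first of these, tdrd6, and 2 did not in each of the others, tdrd6 and lhx8a. These counts were known when the members were chosen, so nothing is read from them. The median absolute log2 difference over all genes was 0.129, 0.183 and 0.200 for the same comparisons. The 3 comparisons share libraries, so the members' differences in them are not independent of each other.

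**Figure D2:**
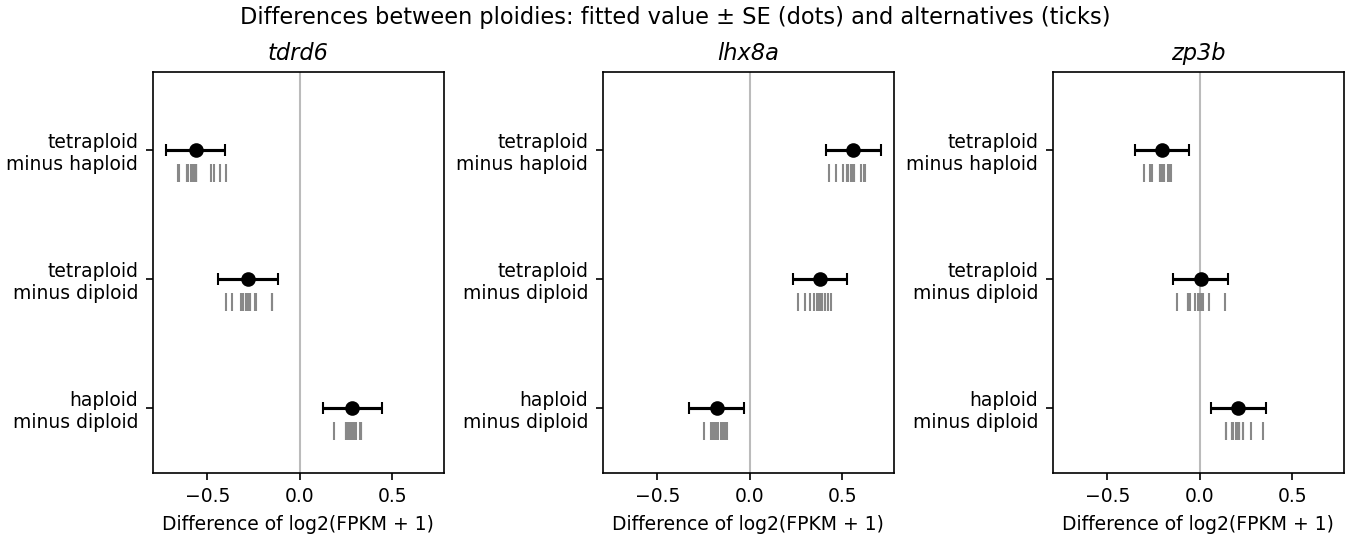
Log2 differences between ploidies for tdrd6, lhx8a and zp3b with their standard errors from limma, from top to bottom for tetraploid minus haploid, tetraploid minus diploid and haploid minus diploid, with grey ticks for the values under 18 alternatives. tdrd6 (-0.56) and lhx8a (0.56) lie on opposite sides of 0 for tetraploid minus haploid, and none of the 9 differences passed.

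The authors' deposited tables of pooled values, with 1 FPKM per ploidy, gave another reading of the ploidies. Their headers give the ploidy and no library, so which libraries were pooled is not known here. Agreement between these tables is therefore not read as separate checks. In the first of the authors' deposited tables tdrd6 had 44.9 in tetraploid, 66.8 in haploid and 53.8 in diploid embryos. lhx8a had 37.3, 24.7 and 27.9 in the same order in the authors' deposited table, and zp3b had 143.4, 150.3 and 130.8. In the second of the authors' deposited tables tdrd6 had 45.4, 70.1 and 49.9, lhx8a had 38.2, 25.8 and 25.8, and zp3b had 148.6, 157.8 and 120.6. The order of the ploidies for tdrd6 was that of the library means in both, with tetraploid lowest. lhx8a was highest in tetraploid embryos in both, and level between haploid and diploid embryos in the second. zp3b was higher in tetraploid than in diploid embryos in both, unlike its library means of 53.1 and 53.4. The intervals given with these pooled values overlap throughout, for example 25.1 to 64.6 for tdrd6 in tetraploid and 48.3 to 85.2 in haploid embryos in the first of the authors' deposited tables. They are higher than the library FPKM, and the cause was not tested.

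Ratios between members within a library do not depend on how libraries were scaled. They were formed after the values above were seen and carry no test. The ratio of tdrd6 to lhx8a was 1.42, 1.28 and 1.01 in the tetraploid libraries, 2.72, 3.40 and 2.36 in the haploid libraries and 2.05, 2.16 and 1.78 in the diploid libraries. The means were 1.24 ± 0.208, 2.83 ± 0.527 and 2.00 ± 0.193 in that order of ploidies (SD, n = 3 each), and no ploidies overlapped. tdrd6 over another gene fell from haploid to tetraploid with no overlap for 414 of the 5766 genes it could be set over, or 7.18%, so such an order is not particular to lhx8a as the partner.

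The ratio of lhx8a to zp3b had the reverse order. It was 0.285, 0.322 and 0.268 in the tetraploid libraries, 0.175, 0.149 and 0.175 in the haploid libraries and 0.231, 0.236 and 0.195 in the diploid libraries. The groups did not overlap, with means of 0.292 ± 0.0277, 0.166 ± 0.0148 and 0.221 ± 0.0221 in tetraploid, haploid and diploid libraries (SD, n = 3 each). lhx8a over another gene was ordered in this direction for 371 of 5766 genes, or 6.43%. The ratio of tdrd6 to zp3b overlapped, at 0.271 to 0.413 in tetraploid, 0.413 to 0.507 in haploid and 0.348 to 0.509 in diploid libraries.

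**Figure D3:**
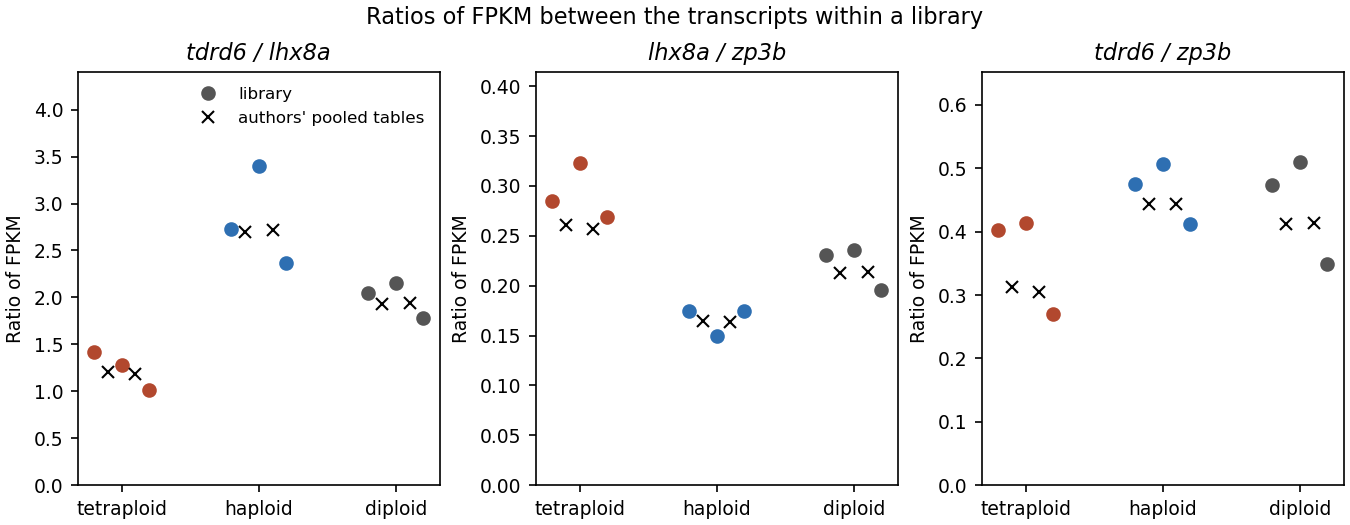
Ratios of FPKM between pairs of the 3 genes within each library (vertical axis, no unit), with tetraploid, haploid and diploid from left to right, and crosses for the same ratio in the authors' 2 pooled tables. tdrd6 over lhx8a is lowest in tetraploid libraries (1.01 to 1.42), lhx8a over zp3b is highest there (0.268 to 0.322), and tdrd6 over zp3b overlaps.

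Over the 9 libraries tdrd6 and lhx8a varied in opposite directions. Pearson's r was -0.817 (exact permutation p = 0.00522, adjusted p = 0.0157 over the 3 pairs of members) and Spearman's rho was -0.867 (exact permutation p = 0.00451, adjusted p = 0.0135). Without haploid replicate 2 and tetraploid replicate 3, the libraries farthest from the median of tdrd6, r was -0.775 (exact permutation p = 0.0405). With each library taken as a deviation from the mean of its ploidy, r was -0.167 (permutation p = 0.667), so the relation was not seen within ploidies. Deviations sum to 0 within a ploidy, so permutation p values for them are approximate. The permutations shuffled libraries without regard to ploidy. Their p values for levels therefore do not ask for a relation beyond ploidy. With FPKM as deposited r was -0.424 (exact permutation p = 0.250) and rho was -0.867. The group means of both genes were known before they were paired, so these p values are no independent evidence.

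For zp3b no relation to the other members passed the test. With tdrd6 its r was 0.323 (exact permutation p = 0.409, adjusted p = 0.490; rho 0.400, p = 0.291, adjusted p = 0.437). With FPKM as deposited this r was 0.675 (exact permutation p = 0.0243, adjusted p = 0.0729), and 0.356 without haploid replicate 2 and tetraploid replicate 3. With lhx8a its r was -0.257 (exact permutation p = 0.490, adjusted p = 0.490; rho -0.233, p = 0.552, adjusted p = 0.552). Without the 2 libraries farthest from the median of the first gene these were 0.386 and -0.315. As deviations from the ploidy means they were -0.277 and 0.550, with signs opposite to those above (approximate permutation p = 0.472 and 0.120). The second was 0.761 without haploid replicate 3 and tetraploid replicate 2 (approximate permutation p = 0.0347, not adjusted).

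The genes whose levels were most like each member's were taken from 4924 tested genes with a single, named symbol, by Pearson's r of log2(FPKM + 1) over the 9 libraries. They are the highest of many values and are given as a description. For tdrd6 they were mapk14b, a p38 MAP kinase gene (r = 0.986), aif1l, an actin-binding protein gene (0.969), utp20 of the small subunit processome (0.953), fynb, a Src family kinase gene (0.951), and got1, cytosolic aspartate aminotransferase (0.946). mapk14b had 14.0 ± 2.65 FPKM in tetraploid, 23.0 ± 3.76 in haploid and 17.9 ± 0.518 in diploid libraries. got1 had 20.8 ± 2.48, 30.6 ± 0.638 and 25.3 ± 0.905 in the same order. Both genes and utp20 are among the 23 that fell from haploid to tetraploid with all ploidies separate. None of the 5 differed past the threshold for tetraploid minus haploid (limma adjusted p = 0.551 to 0.643).

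For lhx8a the nearest were TPM1, a tropomyosin gene (r = 0.950), mvk, mevalonate kinase (0.946), tomm40l of the mitochondrial outer membrane (0.927), angel1 (0.901) and ttc9c (0.901). TPM1 had 88.6 ± 7.12 FPKM in tetraploid, 58.6 ± 5.13 in haploid and 67.8 ± 6.46 in diploid libraries. mvk had 12.2 ± 0.834, 9.26 ± 0.602 and 10.3 ± 0.396 in that order. For zp3b they were prtgb, a protogenin gene (r = 0.927), luzp1 (0.899), acss2, acetyl-CoA synthetase (0.891), rbfox2, a splicing regulator (0.879), and CTIF, a translation initiation factor gene (0.871). luzp1 had 20.5 ± 1.53 FPKM in tetraploid, 24.1 ± 1.65 in haploid and 20.6 ± 3.07 in diploid libraries. Of the 15 genes, 0 belong to the lists of germ plasm, oocyte or egg envelope genes described next. Those lists hold only 16, 8 and 10 tested genes, while 4924 genes were compared. A count of 0 is therefore likely whether or not the members vary with such genes, and nothing is read from it.

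The germ plasm and piRNA pathway was read through a list of 43 genes, tdrd6 included, of which 38 were matched and 16 were tested. A further 22 matched genes, among them nanos3 and dnd1, lie among the unmeasured loci. By limma 0 of the 16 passed in any comparison. For tetraploid minus haploid 7 were positive and 9 negative with a median of -0.03 log2 units, against 49.0% positive and a median of -0.01 over all genes. This median was close to 0 and its sign was not stable. It was 0.03 with 10 positive and 6 negative genes without tetraploid replicate 3, 0.10 without tetraploid replicate 1, 0.02 without tetraploid replicate 2 and 0.04 without haploid replicate 3. The most abundant was buc, which encodes Bucky ball, with 325.5 ± 68.8 FPKM in tetraploid, 360.4 ± 18.7 in haploid and 356.6 ± 14.1 in diploid libraries. ddx4, the vasa RNA helicase gene, had 110.9 ± 13.4, 101.7 ± 5.79 and 95.5 ± 7.38. The Tudor domain gene tdrd7a had 53.0 ± 8.29, 54.0 ± 2.77 and 55.4 ± 2.14, and the RNA-binding protein gene igf2bp3 had 67.0 ± 6.21, 62.8 ± 1.48 and 63.0 ± 2.83. All 4 were above tdrd6 in level, and of their groups only those of ddx4 did not overlap, between tetraploid and diploid libraries (log2 difference 0.21, limma adjusted p = 0.833). Without tetraploid replicate 3 the ddx4 difference was 0.11, and with FPKM as deposited it was 0.08. That library was also the lowest tetraploid one for buc, at 256.7 FPKM. Without it tetraploid minus diploid was 0.01 for buc and 0.05 for tdrd7a, against -0.15 and -0.07 with it. For igf2bp3 it was 0.01, against 0.08. Tetraploid minus haploid was then -0.0034 for buc, against -0.17.

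Among other Tudor domain genes, tdrd5 had 20.9 ± 7.06 FPKM in tetraploid, 15.6 ± 4.74 in haploid and 23.4 ± 8.41 in diploid libraries, with overlapping groups. Its tetraploid minus diploid difference was -0.15, and 0.15 without tetraploid replicate 3. tdrd15 had 5.77 ± 1.29, 8.38 ± 1.07 and 8.85 ± 3.13 (tetraploid minus haploid -0.48, limma adjusted p = 0.679). tdrd3, named after its values were seen, had means in the order of tdrd6, with 13.3 ± 7.32, 15.2 ± 2.55 and 15.01 ± 0.947. Its groups overlapped in all comparisons. The low tetraploid mean of tdrd3 rested on tetraploid replicate 3, at 5.66 FPKM. Without that library its log2 difference was 0.15 both for tetraploid minus diploid and for tetraploid minus haploid, the opposite direction. sybu, which encodes the motor linker syntabulin and acts in axis formation of the zebrafish egg, was high in tetraploid libraries as lhx8a was, with 10.1 ± 1.17, 6.39 ± 1.36 and 7.32 ± 0.791 (tetraploid minus haploid 0.60, limma adjusted p = 0.551). Differences between members of the family were not tested. For tetraploid minus diploid the list had 7 positive and 9 negative genes and a median of -0.11, but without tetraploid replicate 3 it had 10 positive and 6 negative and a median of 0.03. Without diploid replicate 1 this median was 0.0019, and without tetraploid replicate 2 it was -0.17. For haploid minus diploid the list had 7 positive and 9 negative and a median of -0.02, with -0.04 to -0.0028 over single libraries left out.

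Oocyte regulators, maternal-effect and meiotic genes made a list of 35, with lhx8a among them, of which 26 were matched, 17 lay among the unmeasured loci and 8 were tested. Again 0 passed by limma. For tetraploid minus haploid 5 were positive and 3 negative with a median of 0.26 log2 units, and for tetraploid minus diploid 4 were positive and 4 negative with a median of 0.05. For haploid minus diploid 2 were positive and 6 negative with a median of -0.13. Besides lhx8a, the groups of npm2a and btg4 did not overlap between tetraploid and haploid libraries. This made 3 of the 8, where 13.8% of all tested genes did not overlap. The list is small and was chosen with results known, lhx8a included, so nothing is read from this count. With FPKM as deposited the groups of npm2a and btg4 overlapped, with tetraploid replicate 3 below the highest haploid library. Their tetraploid minus haploid differences were then 0.39 and 0.65. npm2a, a maternal nucleoplasmin gene, had 51.5 ± 2.3 FPKM in tetraploid, 36.5 ± 4.76 in haploid and 46.3 ± 4.42 in diploid libraries (tetraploid minus haploid 0.49, limma adjusted p = 0.551). btg4, which in mouse links the CCR4-NOT deadenylase to maternal RNA, had 317.7 ± 88.9, 186.8 ± 43.7 and 221.9 ± 39.3 (tetraploid minus haploid 0.75, limma adjusted p = 0.551). gdf9, an oocyte growth factor gene, had 16.3 ± 2.13, 17.4 ± 2.47 and 18.3 ± 1.30. zglp1, a zinc finger gene related to the GATA factors, had 4.72 ± 1.64, 3.36 ± 0.404 and 5.11 ± 0.833. These medians depended on single libraries. For tetraploid minus haploid the median was 0.12 without haploid replicate 2, 0.14 without tetraploid replicate 2 and 0.48 without haploid replicate 1, and 0.32 without tetraploid replicate 3. For tetraploid minus diploid it was 0.18 without tetraploid replicate 3, where 7 of 8 genes were then positive, 0.12 without diploid replicate 2, 0.03 without tetraploid replicate 1 and -0.01 without tetraploid replicate 2.

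Egg envelope and fertilization genes made a list of 32, zp3b included, of which 23 were matched, 12 lay among the unmeasured loci and 10 were tested. By limma 0 passed. For tetraploid minus diploid 4 were positive and 6 negative with a median of -0.24 log2 units. The groups of 4 of the 10 did not overlap, where 11.5% of all tested genes did not, and the list is small and was chosen with results known. For tetraploid minus haploid 3 were positive and 7 negative with a median of -0.22. For haploid minus diploid 3 were positive and 7 negative with a median of -0.03, which ranged from -0.07 to 0.01 over single libraries left out and was positive without diploid replicate 3. The 4 genes, zp3a.1, zp3a.2, zp2.1 and zp2.2, encode other zona pellucida proteins and had lower values in all tetraploid than in all diploid libraries. Between the highest tetraploid and the lowest diploid library the gap was small for zp3a.1 (40.8 against 41.0 FPKM). It was also small for zp3a.2 (51.3 against 51.9) and zp2.1 (4.19 against 4.31). With FPKM as deposited the zp3a.1 groups overlapped. The zp3b means were 53.1 in tetraploid and 53.4 in diploid libraries with overlapping groups, and whether zp3b differs from these genes was not tested. zp3a.2 had 40.6 ± 11.3 FPKM in tetraploid, 54.1 ± 4.68 in haploid and 54.9 ± 3.10 in diploid libraries (tetraploid minus diploid -0.46, limma adjusted p = 0.833). zp3a.1 had 37.5 ± 4.78, 42.4 ± 4.18 and 45.6 ± 5.48, zp2.1 had 2.94 ± 2.16, 4.46 ± 0.542 and 5.11 ± 0.805, and zp2.2 had 7.51 ± 1.05, 10.3 ± 2.70 and 10.1 ± 0.835. Tetraploid replicate 3 carried much of this. Without it the list median was -0.04 for tetraploid minus diploid and -0.07 for tetraploid minus haploid. Between tetraploid and diploid libraries zp3a.2 then differed by -0.24 and zp2.1 by -0.23, against -0.46 and -0.84 with it. The same difference was -0.17 for zp3a.1 and -0.31 for zp2.2 without it, against -0.28 and -0.39. The zp2 and zp3a genes are closely similar copies, so the assignment of reads among them is uncertain. zp2.2 was named after its values were seen. The most abundant gene of the list was jam2a, a junctional adhesion molecule gene, with 71.3 ± 17.7, 44.5 ± 9.54 and 58.2 ± 24.7 FPKM.

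**Figure D4:**
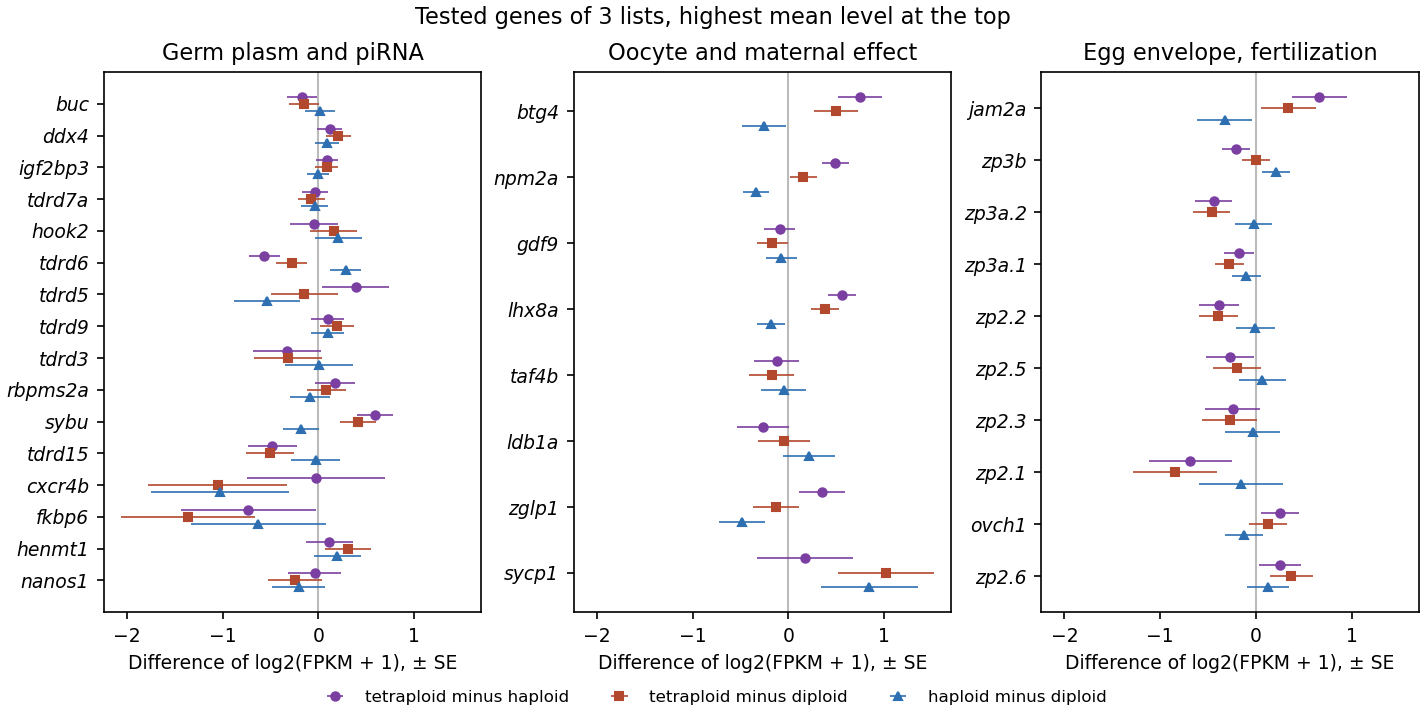
Log2 differences with standard errors from limma for the tested genes of the lists around tdrd6 (left, 16 genes), lhx8a (middle, 8 genes) and zp3b (right, 10 genes), for tetraploid minus haploid, tetraploid minus diploid and haploid minus diploid. tdrd6 and sybu lie on opposite sides of 0 for tetraploid minus haploid (-0.56 and 0.60), and no gene passed the test.

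A list of 20 genes of the embryo at the start of zygotic transcription had 12 among the unmeasured loci and 6 tested. By limma 0 passed. The 6 include the maternal nanog. For nanog the difference was 0.05 log2 units for haploid minus diploid, 0.19 for tetraploid minus diploid and 0.13 for tetraploid minus haploid. It was the 1 positive gene in the first 2 of these, where 5 were negative. Without tetraploid replicate 3 the nanog difference was 0.08 for tetraploid minus diploid and 0.03 for tetraploid minus haploid. With FPKM as deposited these 2 differences were 0.06 and 0.03. The median difference of the list was -1.33 log2 units for haploid minus diploid, -0.59 for tetraploid minus diploid and 0.59 for tetraploid minus haploid. These medians moved with single libraries. Without diploid replicate 1, where 5 of the genes still passed the filter, they were -0.83, 0.02 and 0.91 in the same order. Without diploid replicate 2 tetraploid minus diploid was -1.12, and without tetraploid replicate 2 it was -0.38. Tetraploid minus haploid was 0.34 without haploid replicate 2, 0.99 without haploid replicate 1 and 0.90 without tetraploid replicate 2. klf17, a Krüppel-like factor gene, had 16.8, 9.45 and 21.3 FPKM in the tetraploid libraries, 18.2, 0.956 and 1.87 in the haploid libraries and 59.4, 10.2 and 21.4 in the diploid libraries. These values differ strongly within a ploidy, and haploid replicate 2 and diploid replicate 1 are the extremes. The homeobox genes irx7 and mxtx2 had 5.55 ± 2.17 and 2.5 ± 1.34 FPKM in tetraploid, 3.59 ± 5.59 and 1.05 ± 1.43 in haploid and 17.1 ± 19.7 and 4.99 ± 4.83 in diploid libraries. ndr1, a Nodal ligand gene, had 0.797 ± 0.277, 1.15 ± 0.475 and 1.54 ± 0.621 FPKM in that order. Their part in the values of tdrd6, lhx8a and zp3b was not tested.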

How the data were processed

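Total RNA of whole embryos was extracted with Trizol and sequenced on Illumina libraries, per the labels' protocols. The submitters' processing notes name FastQC, Trim Galore, HISAT2, Cufflinks, Cuffdiff and GRCz10, with versions, annotation and strand setting not given in the sources used here. The authors deposited FPKM per library with Cufflinks intervals, and pooled FPKM per ploidy. No sequence is shown for the members. Depth is not given, and counts were not recovered.

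Locus numbers restart once along each chromosome. The first run holds 15165 loci (5837 tested), the second 15537 (44 tested), and second-run loci below the filter were treated as unmeasured. Libraries were brought to a common scale by median-of-ratios factors. All 9 entered 1 limma fit (version 3.58.1, R 4.3.3) of log2(FPKM + 1) that let the variance follow the mean, leaving 6 residual degrees of freedom. The 5881 genes averaging 1 FPKM or more were tested, with Benjamini-Hochberg adjustment at 0.05. The scale understates differences of low genes. The fit was run on simulated data with changes larger than the members' differences. How often it would call differences of the members' size was not tested. Exact permutation tests were two-sided.

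Members and lists were chosen with earlier results of these data known. List genes were named if they passed, were among the 4 most abundant or had one of the 2 smallest p values in a comparison, and 5 nearest genes were named per member. Alternatives were other pseudocounts, filters and scalings, array weights, a block, a fit of the 6 libraries compared, and leaving out single libraries.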

Additional observations from a re-analysis of the deposited data

How the results depend on the processing

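All differences of tdrd6 and lhx8a, and those of zp3b that involve haploid embryos, kept their direction and failed the threshold under all 18 alternatives. Some of these could hardly turn a direction. A replicate block leaves the differences of this balanced design as they are. Leaving out libraries of a ploidy not compared alters them only through the scaling and the filter. Tetraploid minus haploid ranged from -0.659 to -0.398 for tdrd6 (limma adjusted p = 0.315 to 0.911) and from 0.431 to 0.625 for lhx8a (0.274 to 0.911). For zp3b, tetraploid minus diploid was 0.0035 and turned to -0.00919 with a mean FPKM of at least 5, -0.123 with FPKM as deposited (all genes had a median of -0.112 there) and -0.0265 with array weights, and ranged from -0.0648 to 0.136 over single libraries left out. The cause was not tested.

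Genes called for tetraploid minus diploid, 1 here, were 0 with a pseudocount of 5, with FPKM as deposited, in a fit of the 6 libraries and with a replicate block, and 2 with no filter. For tetraploid minus haploid, 1 here, 0 were called in a fit of the 6 libraries and with the block. Over single libraries left out each comparison had 0 to 1 calls. The labels give the libraries no replicate numbers that pair them. In a replicate block of libraries with consecutive numbers the members' differences were unchanged, which the balanced design fixes in advance. The limma adjusted p values for tdrd6 and lhx8a were then 0.649 for tetraploid minus haploid, 0.843 for tetraploid minus diploid and 0.999 for haploid minus diploid. Same-numbered libraries had deviations correlated at -0.110 to 0.234, and pairs of other number and other ploidy at -0.133 to 0.228. Library numbers ran from 1 to 3 for replicate 1, 4 to 6 for replicate 2 and 19 to 21 for replicate 3. The correlation of tdrd6 and lhx8a was -0.167 as deviations from ploidy means and -0.424 with FPKM as deposited. Deviations gave -0.277 for tdrd6 and zp3b and 0.550 for lhx8a and zp3b. In the authors' pooled tables the ratio of lhx8a to zp3b in tetraploids was 0.260 and 0.257, more than 1 SD below the library mean. These tables were added after the data were seen. With 3 libraries per ploidy an exact test of 1 gene cannot go below 0.1.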
